A study of Mus musculus with 60 samples.

Results

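Sfmbt2, Gab1, Slc38a4, Smoc1 and Jade1 are 5 mouse genes whose imprint depends on trimethylation of histone H3 at lysine 27 (H3K27me3), and they were followed here from the donor cell to the blastula. The genes were fixed by name and found by their Ensembl identifiers, and they are 5 of the 27238 genes in the expression table. No cut on a measured value selected them, but earlier results of these data were known when they were chosen. All 5 had a row. The series measured RNA in single mouse preimplantation embryos and in donor cells by RNA-seq, with values in RPKM, that is, reads scaled to the length of the gene and to the reads of the library. It held 60 libraries in 20 groups of 3. Of these, 6 came from donor cells and 54 from embryos, which covered cleavage (1-cell, 2-cell, 4-cell and 8-cell stages), morulae and blastulas.

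In vivo embryos came from C57BL/6 females mated with DBA2 males. Nuclear transfer (NT) embryos were enucleated BDF1 oocytes that received a somatic nucleus, either from a cumulus cell (CC), giving NTC embryos, or from a mouse embryonic fibroblast (MEF), giving NTM embryos. CCs surround the oocyte and were taken from BDF1 females, whereas MEFs were derived from BDF1 fetuses at mid-gestation and starved of serum before transfer. The nuclei of all embryos and donor cells therefore shared the BDF1 background. The oocytes did not, being C57BL/6 for in vivo embryos and BDF1 for NT embryos. NT embryos, but not in vivo embryos, had been activated with strontium, exposed to the histone deacetylase inhibitor Scriptaid and cultured in vitro. Nuclear transfer, these treatments and the strain of the oocyte cannot be told apart in any comparison of NT with in vivo embryos. Embryos were picked by morphology, and each embryo library is 1 embryo.

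As background, Polycomb repressive complex 2 writes H3K27me3 through its catalytic subunit Ezh2 or Ezh1, with Eed and Suz12 as core partners, and the demethylases Kdm6a and Kdm6b remove it. In the mouse oocyte the mark covers the maternal copy of certain genes that lack maternal DNA methylation, and in the early embryo these genes are then expressed from the paternal copy. A somatic nucleus has not passed through oogenesis on its way into the NT embryo. The table gives the total level of each gene and does not separate maternal from paternal copies, so none of the values below measures imprinting itself. In whole embryos, fewer expressing cells and less RNA per cell cannot be told apart either.

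The 5 genes have different roles. Sfmbt2 is a Polycomb group protein with MBT repeats that is known from the trophoblast lineage. Jade1 is a scaffold subunit of the histone acetyltransferase complex built on Kat7 (HBO1). Gab1 is a docking protein that links receptor tyrosine kinases such as Egfr and Met to Ptpn11 and phosphoinositide 3-kinase. Slc38a4 is a sodium-coupled transporter of neutral amino acids. Smoc1 is a secreted calcium-binding protein of the matrix.

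In the GRCm38 annotation, Sfmbt2 (ENSMUSG00000061186) lies at chr2:10370510-10595253 on the plus strand, Jade1 (ENSMUSG00000025764) at chr3:41555731-41616864 on the plus strand, and Gab1 (ENSMUSG00000031714) at chr8:80764438-80880519 on the minus strand. Slc38a4 (ENSMUSG00000022464) lies at chr15:96994820-97055956 on the minus strand and Smoc1 (ENSMUSG00000021136) at chr12:81026808-81186414 on the plus strand. The table itself carried no coordinates. Overlapping annotations differed among the genes. The Sfmbt2 locus holds 119 annotated miRNA genes, of which 3 had a row in the table, each above 0 in 1 library only. Jade1 is overlapped by the antisense gene Gm31266, which was above 0 in 4 libraries and reached 4.55 RPKM. Sfmbt2 is overlapped at its start by Gm13261 on the opposite strand, which was above 0 in 20 libraries and reached 9.53 RPKM. Strand use in counting is not given in the sources used here, so reads of these antisense genes and of their partners cannot be told apart.

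The 250 bases before the transcription start are shown for Gab1, Jade1 and Slc38a4. Gab1 and Jade1 were the genes with a called difference between NT and in vivo embryos. Slc38a4 had a mean log2 level in NT blastulas below that in in vivo blastulas, a difference that was not called. The mean RPKM of Sfmbt2 was also lower in NT blastulas (3.13 in NTC and 3.73 in NTM, 8.97 in vivo), but its mean log2 level was not. The letters are from RefSeq in GRCm38.p6, written from 5′ to 3′ on the strand of the gene, with every CG dinucleotide in capitals. CG reads the same on both strands. RefSeq windows were matched for 4 of the 5 genes, and Smoc1 is named only.
Gab1: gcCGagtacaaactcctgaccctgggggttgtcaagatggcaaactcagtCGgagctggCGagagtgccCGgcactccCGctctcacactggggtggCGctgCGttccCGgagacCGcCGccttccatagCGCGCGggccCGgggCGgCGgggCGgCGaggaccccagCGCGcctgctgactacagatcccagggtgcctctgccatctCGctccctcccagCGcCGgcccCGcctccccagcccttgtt (chr8:80880520-80880769, minus strand)
Jade1: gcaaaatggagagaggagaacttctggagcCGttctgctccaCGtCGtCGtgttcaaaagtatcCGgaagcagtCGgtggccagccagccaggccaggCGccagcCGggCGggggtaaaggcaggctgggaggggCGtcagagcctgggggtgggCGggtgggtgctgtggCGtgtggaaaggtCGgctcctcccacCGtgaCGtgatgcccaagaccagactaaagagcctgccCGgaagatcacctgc (chr3:41555484-41555733, plus strand)
Slc38a4: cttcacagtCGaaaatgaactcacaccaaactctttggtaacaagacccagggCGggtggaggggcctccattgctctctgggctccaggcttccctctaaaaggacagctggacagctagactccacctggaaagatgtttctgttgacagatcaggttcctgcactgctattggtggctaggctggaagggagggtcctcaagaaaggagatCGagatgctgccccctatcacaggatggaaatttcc (chr15:97055957-97056206, minus strand)

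Gab1 held 24 CG dinucleotides in this window and Jade1 held 16, against a median of 6 over 32851 windows of the same length. At least as many were found in 12% of windows for Gab1 and in 25.4% for Jade1. The window of Slc38a4 held 3, a number that 71.0% of windows reached or exceeded, and that of Sfmbt2 held 8, reached by 43.0%. These are letters of the reference genome and no mark was measured on them.

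Depth was recovered from the steps between low RPKM values and ran from 5294167 to 47830132 reads on genes. At that depth 3 reads of a gene correspond to 0.00687 to 0.0621 RPKM for Sfmbt2, the longest, and to 0.0179 to 0.162 RPKM for Smoc1, the shortest. A value listed at 0 is therefore not detected at this depth rather than absent. The 3 in vivo blastula libraries stood apart, with 7730 to 7808 genes above 0 against 11498 to 13568 in the 6 NT blastulas, at 8557973 to 15706984 and 10215567 to 20683052 reads. In vivo 4-cell libraries carried 5.68% to 8.87% mitochondrial reads and NT 4-cell libraries 29.6% to 40.4%. The part of either feature in the results was not tested. Fibroblast markers summed to 5173 to 7786 RPKM in MEFs and 2.88 to 3.71 in CCs. The sum of cumulus markers did not separate the donors in the same way, at 290 to 428 RPKM in CCs and 516 to 1230 in MEFs. Ptx3 was the largest of them in every MEF library, at 406 to 1003 RPKM against 0.436 to 14.3 in CCs. Other markers leaned to CCs. Nr5a2 was at 1.78 to 16.4 RPKM in CCs and at most 0.00805 in MEFs. Inhba was at 52.2 to 262 in CCs and 1.29 to 76.3 in MEFs, and Foxl2 was at 0 in MEFs. Tnfaip6 and Ptgs2 overlapped between the donors, and Has2 was at 0 in every CC library. All 8 trophectoderm markers reached 1 RPKM in each group of blastulas.

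Over all stages, more NT than in vivo embryos carried these transcripts at 1 RPKM or more. Gab1 reached that level in 9 of 18 in vivo and 30 of 36 NT embryos, and Jade1 in 5 of 18 and 28 of 36. Slc38a4 did so in 7 of 18 and 18 of 36, Smoc1 in 3 of 18 and 13 of 36, and Sfmbt2 in 2 of 18 and 8 of 36. These counts mix stages and depths and were not tested. The share of all genes that reached 1 RPKM is not given beside them, so they do not show a trait of these 5 genes. Detection differed more widely: 8-cell libraries had 10284 to 12737 genes above 0 in NT and 9913 to 10304 in vivo. In 4-cell libraries the numbers were 8997 to 11929 in NT and 13576 to 13932 in vivo. At the 1-cell stage at most 1 of the 5 genes reached 1 RPKM in any embryo. At the 8-cell stage every NT embryo had 3 genes at that level and in vivo embryos had 0 or 1, and in blastulas NT embryos had 4 or 5 and in vivo embryos 1 to 4.

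**Figure D1:**
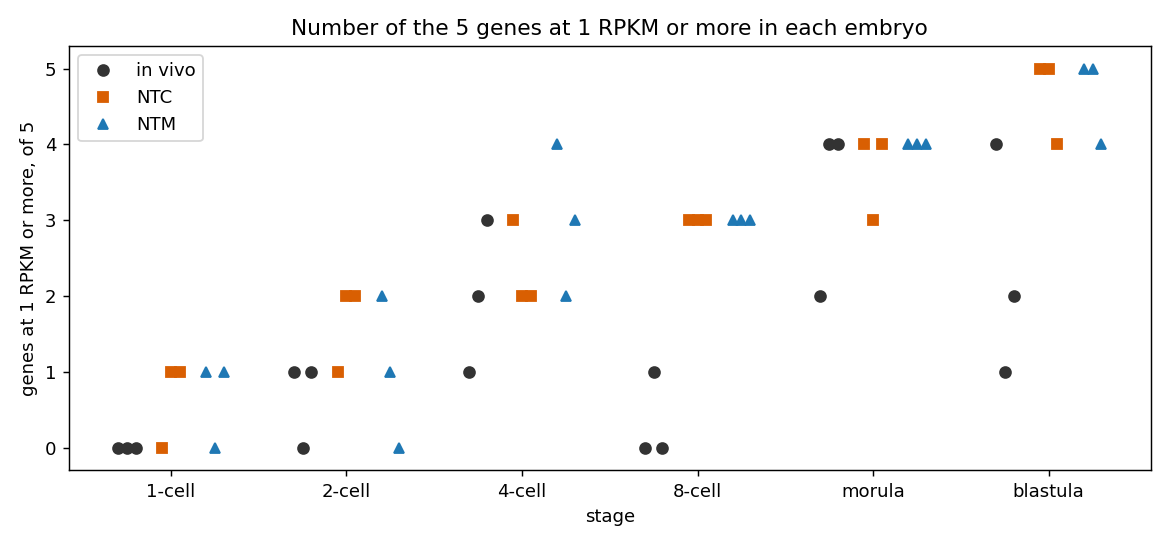
Number of the 5 genes at 1 RPKM or more in each of the 54 embryos, by stage on the horizontal axis, with 1 point per embryo and the embryo type given by colour and shape. At the 8-cell stage the 6 NT embryos all sit at 3, above the in vivo embryos at 0 or 1. The same count over all genes is not shown.

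A difference was called where limma on log2(RPKM + 1) gave an adjusted p (Benjamini-Hochberg over all genes tested) under 0.05 and groups were 1 or more apart on that log2 scale. Genes with a mean under 0.5 RPKM over the libraries of a comparison were not tested. Across the 12 comparisons of an NT type with in vivo embryos of the same stage, 37 of 60 pairs of gene and comparison were tested and 2 were called, both higher in NT embryos. Over all genes these comparisons called 5.83% of tests. With the 2 NT types combined, 20 of 30 pairs were tested and 2 were called, both Jade1 and both higher, where 9.09% of all tests were called. The comparisons of each NT type and of the types together share the same in vivo embryos.

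**Figure D2:**
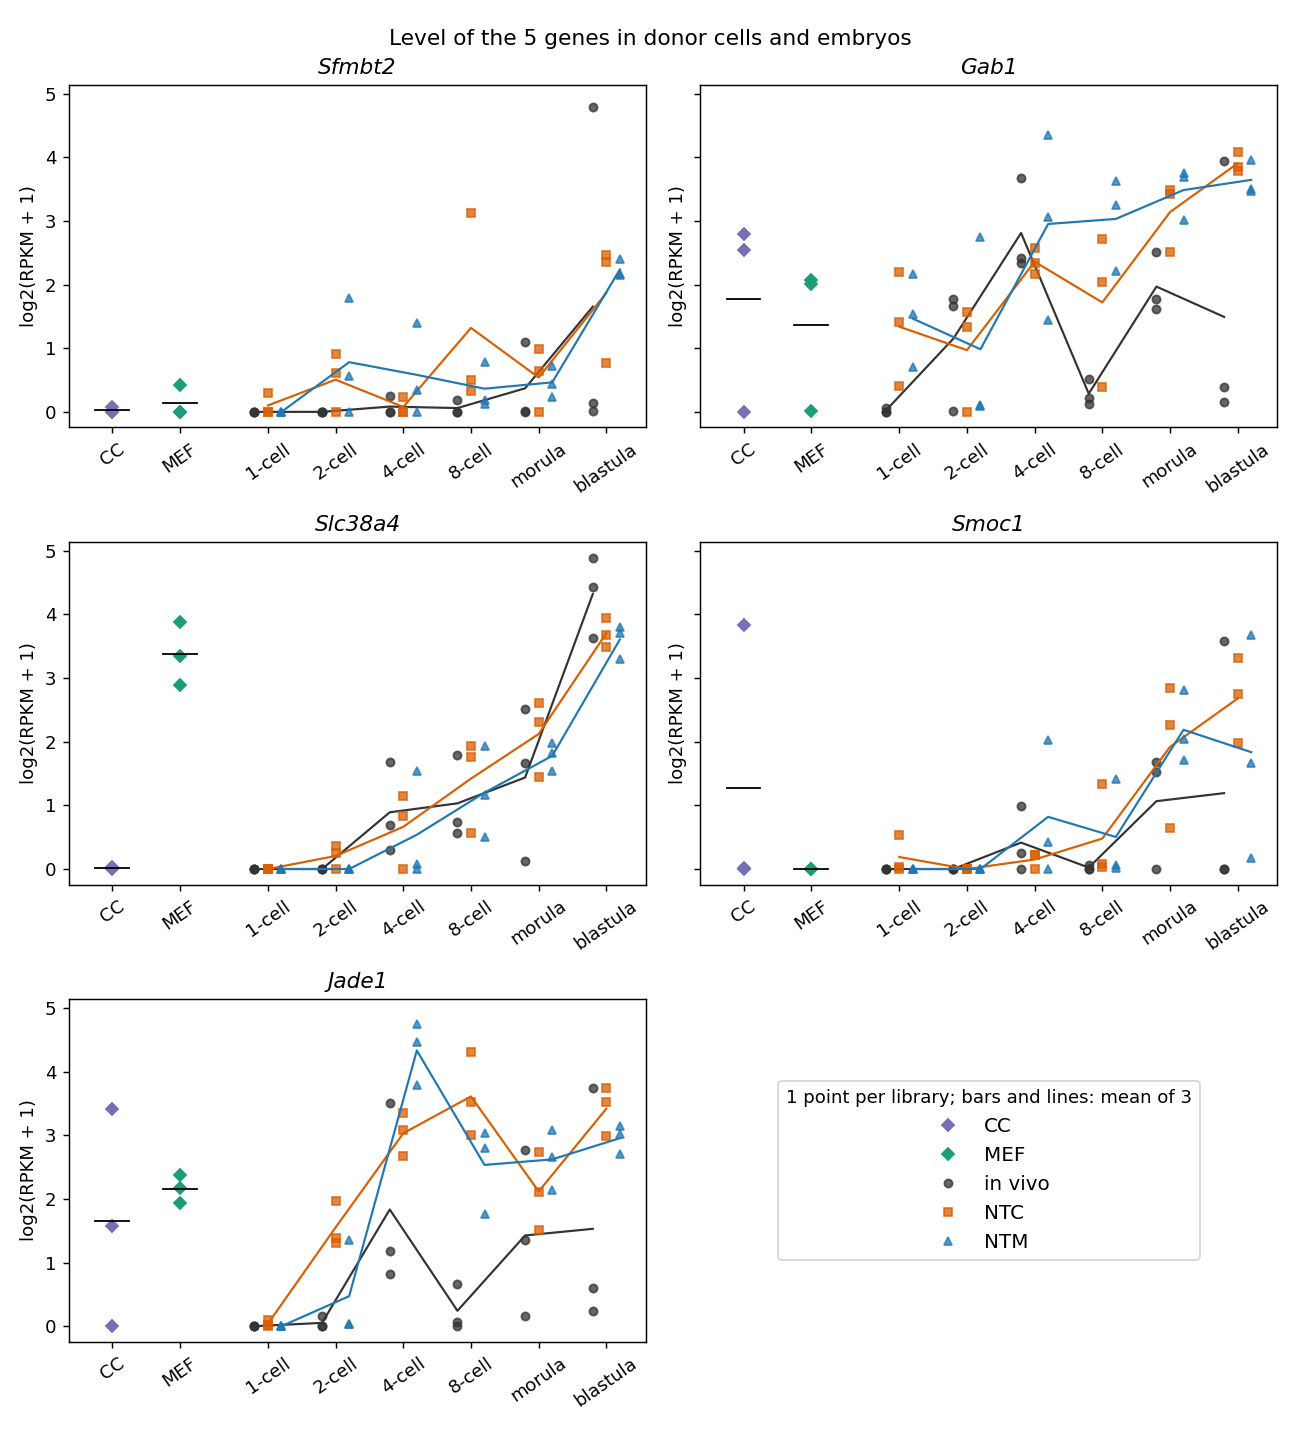
Level of each gene as log2(RPKM + 1) on the vertical axis in CCs, MEFs and the 6 stages, with 1 point per library, bars at the mean of 3 donor libraries and lines through the mean of 3 embryos. Jade1 and Gab1 of NT embryos lie above the in vivo line at the 8-cell stage, Slc38a4 climbs in all embryo types and is high in MEFs, and the 3 in vivo blastulas spread widely for Sfmbt2, Gab1, Smoc1 and Jade1.

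Jade1 had the larger of the called differences of an NT type from in vivo embryos. It was at 0 in the 3 in vivo and 3 NTM 1-cell embryos, and at 0, 0.0665 and 0.0181 RPKM in NTC. In 2-cell embryos it measured 0, 0 and 0.114 RPKM in vivo, 2.90, 1.62 and 1.47 in NTC, and 1.55, 0.0257 and 0.0190 in NTM. The NTC 2-cell embryos were thus all above the in vivo ones, as in 8.49% of genes, yet the difference of 1.5 ± 0.58 on the log2 scale (SE, n = 3 against 3) was not called (limma adjusted p = 0.461).

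At the 4-cell stage Jade1 reached its highest level of any group in NTM embryos, at 25.7, 12.8 and 21.1 RPKM. NTC embryos had 9.18, 5.37 and 7.43 RPKM, and in vivo embryos 0.761, 10.4 and 1.26. In vivo replicate 2 lay above every NTC embryo and below every NTM embryo, and 8.08% of genes had all NTM 4-cell values above all in vivo values. NTM and NTC together exceeded in vivo embryos by 1.85 ± 0.61 on the log2 scale (limma adjusted p = 0.0442), in a comparison that called 26.6% of genes in either direction and 5.0% as higher. That call was lost in 7 of the 9 fits without 1 library, with adjusted p from 0.00754 to 0.212. It was also lost without the filter on low values and with a replicate block. NTM alone differed by 2.50 ± 0.77 (adjusted p = 0.0539) and NTC alone by 1.2 ± 0.70 (adjusted p = 0.240), and without in vivo replicate 2 both were called, at 3.33 (adjusted p = 0.0325) and 2.03 (adjusted p = 0.0387). The NTM difference was also called after median-ratio scaling (2.68, adjusted p = 0.0341), with mitochondrial genes left out of the scaling (3.04, adjusted p = 0.0391) and in 1 fit over all groups (adjusted p = 0.00370). It stayed uncalled with a pseudocount of 0.1, without the filter on low values, with a replicate block and without the fold threshold. NTM replicate 2, the lowest for Jade1, was also the library with the highest sum of oocyte markers at this stage, 382 RPKM against 29.2 to 77.9 in the other 4-cell embryos.

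In 8-cell embryos Jade1 was nearly undetected in vivo, at 0.0411, 0 and 0.589 RPKM. The NTC embryos had 18.8, 7.01 and 10.5 RPKM and the NTM embryos 7.23, 2.40 and 5.95, so no NT embryo overlapped the in vivo range. All NT values lay above all in vivo values in 23.4% of genes for NTC and 16.8% for NTM. The rise in NTC was 3.37 ± 0.66 on the log2 scale (limma adjusted p = 0.0373), in a comparison that called 1.46% of genes, 0.882% as higher. The NTM difference of 2.29 ± 0.57 was not called (adjusted p = 0.0722). For both types together it was 2.83 ± 0.51 (adjusted p = 0.0106), where 3.61% of genes were called and 2.54% were higher. The joint call was kept in all 9 fits that left out 1 library (adjusted p from 0.0157 to 0.0455), whereas the NTC call was lost in all 6 of its own (adjusted p from 0.0731 to 0.127). Without the filter on low values both calls were lost, the joint one at an adjusted p of 0.0537.

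Jade1 ranges of the embryo types overlapped in morulae. These had 1.54, 5.79 and 0.121 RPKM of Jade1 in vivo, 5.67, 1.84 and 3.31 in NTC and 5.28, 3.39 and 7.44 in NTM. Jade1 rose in NTC embryos from the 1-cell to the 2-cell stage by 1.51 ± 0.42 (adjusted p = 0.0452) and to the 4-cell stage by a further 1.48 ± 0.47 (adjusted p = 0.0376), and in NTM embryos from the 2-cell to the 4-cell stage by 3.86 ± 0.68 (adjusted p = 0.00436). Among 52 tests of steps between stages 4 were called, 3 of them higher, where 14.5% of tests were called over all genes. These 3 steps called 13.5%, 36.6% and 26.4% of all genes. Without 1 library, the NTM step was called in all 6 fits, while each NTC step was lost in 5 of 6. The in vivo step of Jade1 from 2-cell to 4-cell embryos was 1.78 ± 0.71 and was not called (adjusted p = 0.0701), but it was with a pseudocount of 0.1 (adjusted p = 0.0162) and in 1 fit over all groups (adjusted p = 0.0218). The difference between the NT and in vivo steps was itself tested and was not called for any gene in any of 34 tests, 5 of which had an unadjusted p under 0.05. These tests called 6.83% of all genes. For the Gab1 steps between 4-cell and 8-cell embryos a difference was called without NTC 8-cell replicate 3 (adjusted p = 0.0260) or without NTM 4-cell replicate 1 (adjusted p = 0.0224), and for the Jade1 step between 2-cell and 4-cell NTM embryos without in vivo 4-cell replicate 2 (adjusted p = 0.0464).

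Gab1 was the only one of the 5 genes above 0 in every NT 1-cell embryo. It measured 0.325, 1.65 and 3.60 RPKM in NTC and 1.89, 0.627 and 3.48 in NTM, and 0.0394, 0 and 0 in in vivo 1-cell embryos. None of the NT values overlapped the in vivo values, an arrangement that 24.2% of genes showed in NTC and 14.5% in NTM. The differences of 1.32 ± 0.49 in NTC and 1.45 ± 0.52 in NTM were not called (limma adjusted p = 0.168 and 0.254). Donor cells also contained Gab1, at 5.90, 0 and 4.85 RPKM in CCs and 0.00488, 3.21 and 3.02 in MEFs. Fibroblast markers summed to 0.327 to 0.429 RPKM in NTM 1-cell embryos, and the part of donor RNA in their Gab1 level was not tested.

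In vivo embryos had a peak of Gab1 at the 4-cell stage, with 4.05, 4.35 and 11.8 RPKM after 2.42, 0.0148 and 2.15 at the 2-cell stage. It then fell to 0.0863, 0.169 and 0.426 RPKM at the 8-cell stage. The drop of Gab1 was -2.53 ± 0.47 on the log2 scale (adjusted p = 0.00399) and was called in all 6 fits without 1 library. At this step 43.7% of all genes were called and the median gene changed by -1.05, so the table as a whole moved in the same direction.

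In NT embryos Gab1 was less uniform at this stage. NTM 8-cell embryos had 8.56, 11.3 and 3.65 RPKM of Gab1, all above the in vivo range, and NTC embryos 5.56, 3.13 and 0.317, with replicate 3 inside it. The NTM difference of 2.75 ± 0.57 was called (limma adjusted p = 0.0407), in a comparison that called 2.02% of genes, 1.2% as higher, and it was lost in each of the 6 fits without 1 library (adjusted p from 0.0583 to 0.188). The NTC difference was 1.43 ± 0.71 (adjusted p = 0.278). For both types together it was 2.09 ± 0.58 (adjusted p = 0.0649), and without NTC replicate 3 it was called, at 2.42 (adjusted p = 0.0264). Of all genes called in the NTC and NTM 8-cell comparisons, 60.4% and 59.2% were higher in NT embryos, and 33.1% and 47.8% after median-ratio scaling. The median gene was higher in NT embryos by 0.56 and 0.24 on the log2 scale, and by 0.31 and 0.16 after that scaling. Among the 5 genes, 2 in NTC (Sfmbt2 and Jade1) and 2 in NTM (Gab1 and Jade1) had all 3 NT values above all in vivo values, an arrangement found in 23.4% and 16.8% of all genes tested.

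At the 2-cell, 4-cell and morula stages the Gab1 ranges of NT and in vivo embryos overlapped, apart from NTM morulae. NTM morulae had 7.08, 11.9 and 12.5 RPKM against 2.42, 4.72 and 2.06 in vivo and 10.2, 4.68 and 9.70 in NTC. The NTM difference of 1.52 ± 0.55 was not called (adjusted p = 0.378), and 5.82% of genes had all NTM morulae above all in vivo ones. In 4-cell embryos NTC had 4.98, 4.03 and 3.49 RPKM and NTM 19.4, 1.71 and 7.38, around the in vivo values. In 2-cell embryos NTC had 0, 1.51 and 1.98 RPKM and NTM 0.0630, 5.71 and 0.0831.

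**Figure D3:**
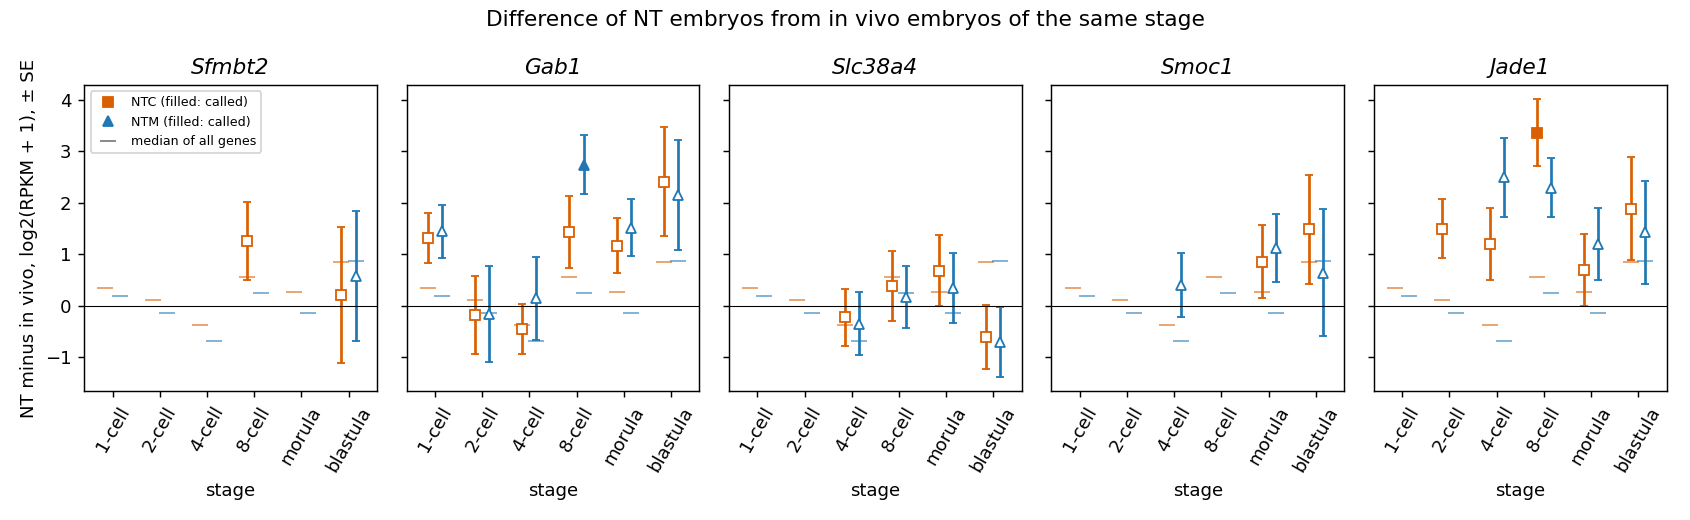
Difference of NTC and NTM embryos from in vivo embryos of the same stage in log2(RPKM + 1) with its SE, for each gene and stage that was tested. Filled symbols mark called differences and short bars the median over all genes. Only Jade1 in NTC and Gab1 in NTM at the 8-cell stage are filled, and the wide errors are those of the blastulas.

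The 3 in vivo blastulas did not resemble each other in these genes. Replicate 1 held 26.8 RPKM of Sfmbt2, 14.3 of Gab1 and 12.4 of Jade1. Replicates 2 and 3 held 0.0128 and 0.105 of Sfmbt2, 0.313 and 0.108 of Gab1, and 0.179 and 0.523 of Jade1. For Smoc1 the order was different, with 0, 0 and 10.9 RPKM in replicates 1, 2 and 3. Slc38a4 was present in all, at 11.4, 28.7 and 20.6 RPKM. The in vivo blastulas contained no detected oocyte markers and 468 to 1592 RPKM of trophectoderm markers, the lowest sum being that of replicate 1. Single markers differed, as replicate 1 was lowest for Krt8, Krt18, Id2, Elf5 and Eomes, intermediate for Cdx2 and Tfap2c, and highest for Gata3. The sum is not specific to trophectoderm, since the same list reached 309 to 852 RPKM in CCs.

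NT blastulas were closer to each other than in vivo blastulas for Gab1 and Jade1. Gab1 measured 12.8, 13.4 and 15.9 RPKM in NTC and 10.4, 14.5 and 10.1 in NTM, close to in vivo replicate 1 and far above replicates 2 and 3. Jade1 had 6.97, 12.4 and 10.5 RPKM in NTC and 7.81, 7.13 and 5.49 in NTM. Sfmbt2 had 4.14, 4.54 and 0.708 RPKM in NTC and 4.27, 3.45 and 3.47 in NTM, between the highest and the other in vivo blastulas. Smoc1 varied as widely in NTM blastulas, from 0.124 to 11.8 RPKM, as in vivo.

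None of the 5 genes was called in NTC or NTM blastulas, in comparisons that called 9.46% and 0.746% of genes, nor in both types together, where 18.5% were called. For Gab1 the log2 differences were 2.41 ± 1.06 in NTC and 2.15 ± 1.08 in NTM (limma adjusted p = 0.183 and 0.242), and for Jade1 1.89 ± 1.0 and 1.42 ± 1.01 (adjusted p = 0.255 and 0.408). For Sfmbt2 they were 0.21 ± 1.32 and 0.58 ± 1.27, and for Smoc1 1.49 ± 1.06 and 0.64 ± 1.24. The median gene was itself higher by 0.85 in NTC and 0.86 in NTM on this scale, and by 0.53 and 0.55 after median-ratio scaling.

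Some calls in blastulas, absent from the main fits, appeared when in vivo replicate 1 was left out. That embryo was the highest in vivo blastula for Sfmbt2, Gab1 and Jade1, so leaving it out widens these differences by construction. Without it, Gab1 in NTC was higher by 3.63 (adjusted p = 0.0264) and Jade1 in NTC by 3.0 (adjusted p = 0.0337). For both NT types together, and without that embryo, Gab1 was higher by 3.50 (adjusted p = 0.00223), Jade1 by 2.76 (adjusted p = 0.00660) and Sfmbt2 by 1.97 (adjusted p = 0.0384). These fits have 2 in vivo blastulas, and the embryo left out was the deepest of the 3, at 15706984 reads. No NTM difference was called without it. The share of all genes called in these reduced fits is not given here, so the calls cannot be set against a general rate. With all 3 in vivo blastulas the joint comparison called 18.5% of genes. With all 3 in vivo blastulas, 1 fit over all groups also called Gab1 (adjusted p = 0.0297 in NTC and 0.0121 in both types together) and Jade1 (adjusted p = 0.0474 and 0.0342). That fit called 1871 genes in NTC and 2591 in both types together. A pseudocount of 0.1 called Gab1 in both types together (adjusted p = 0.0450), among 2799 genes called.

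**Figure D4:**
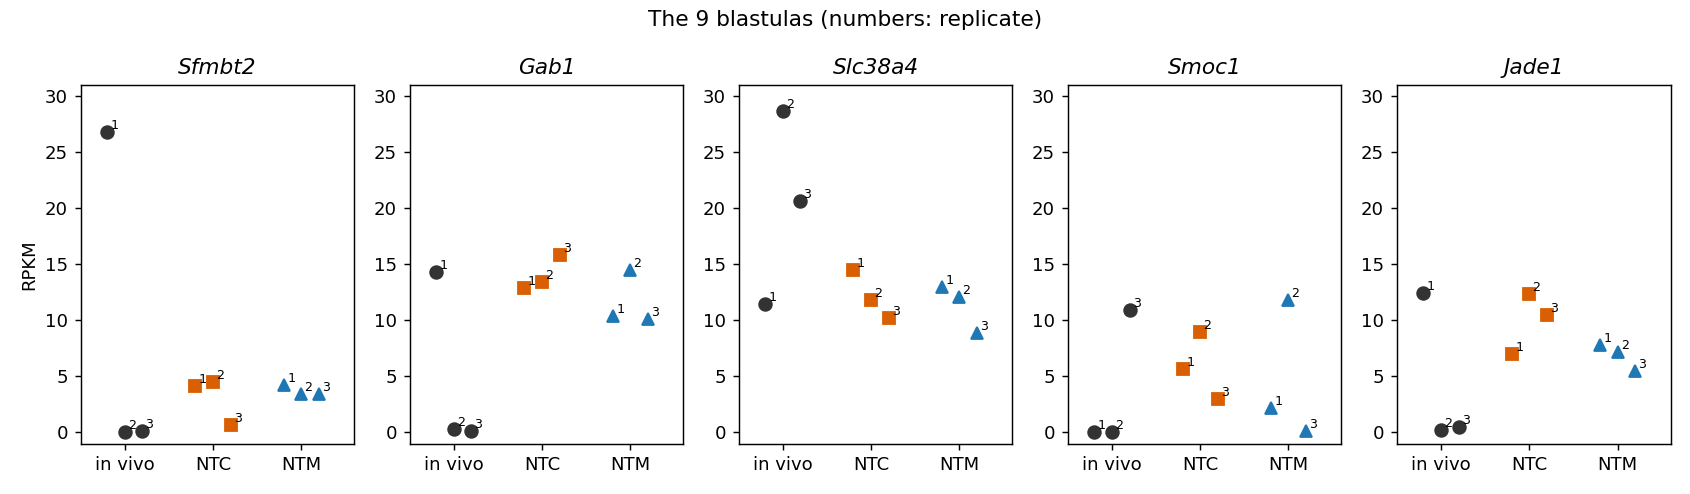
RPKM of each gene in the 9 blastulas, with replicate numbers beside the points. In vivo replicate 1 is the highest of the 3 in vivo embryos for Sfmbt2, Gab1 and Jade1 and the lowest for Slc38a4, and NT blastulas cluster more tightly for Gab1, Slc38a4 and Jade1.

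Slc38a4 was highest in blastulas in each of the 3 embryo types. It was listed at 0 in all 9 embryos of the 1-cell stage and in the in vivo and NTM 2-cell embryos, and at 0, 0.190 and 0.287 RPKM in NTC 2-cell embryos. At the 4-cell stage it ranged from 0 to 2.22 RPKM, at the 8-cell stage from 0.424 to 2.81, and in morulae from 0.0929 to 5.09. Blastulas held 14.5, 11.8 and 10.2 RPKM in NTC and 13, 12.1 and 8.85 in NTM, beside 11.4 to 28.7 in vivo. The highest NT value lay below 2 of the 3 in vivo values. Its log2 difference was -0.62 ± 0.62 in NTC and -0.71 ± 0.68 in NTM (limma adjusted p = 0.541 and 0.529), in the opposite direction to the median gene. No step between neighbouring stages was called for Slc38a4, the nearest being morula to blastula in NTM (adjusted p = 0.0530), which was called without NTM blastula replicate 3 (adjusted p = 0.0408) and in 1 fit over all groups (adjusted p = 0.0164). The largest step was that of in vivo embryos, morula to blastula, at 2.88 ± 0.89 (adjusted p = 0.160), which that fit called (adjusted p = 1.57e-05). The NTC step (adjusted p = 0.0555) was called with mitochondrial genes left out of the scaling (adjusted p = 0.0485).

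Slc38a4 was also the gene that separated the donor cells. MEFs held 13.8, 6.42 and 9.19 RPKM and CCs 0, 0.0240 and 0.00802, a difference of 3.36 ± 0.69 on the log2 scale (limma adjusted p = 0.0227), in a comparison that called 6.29% of genes. The call was lost in 4 of 6 fits without 1 library (adjusted p from 0.0453 to 0.0697). In NTM embryos the transcript was lower than in MEFs at the 1-cell, 2-cell, 4-cell and 8-cell stages and in morulae, and these 5 differences were called (adjusted p = 0.000245, 0.00115, 0.0128, 0.00981 and 0.0157). These comparisons called 55.2%, 39.5%, 28.5%, 42.3% and 41.9% of all genes. The first 4 were kept in every fit without 1 library. The morula difference was lost without NTM morula replicate 2 (adjusted p = 0.0609) and when mitochondrial genes were left out of the scaling (adjusted p = 0.176).

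NTM 1-cell and 2-cell embryos held no Slc38a4 reads. The mean of the 3 MEF libraries was 182.8-fold and 159.9-fold the floor of 3 reads per library in these embryos. That floor covers counting error only, so these values do not bound the ratio of the true levels. In NTC embryos, in contrast, Slc38a4 exceeded the CC level in morulae by 2.11 ± 0.50 (adjusted p = 0.0190) and in blastulas by 3.69 ± 0.49 (adjusted p = 0.00221), where 29.6% and 24.2% of genes were called. NTC morulae had 3.96, 1.73 and 5.09 RPKM. That call was lost without replicate 1 (adjusted p = 0.0635) or replicate 3 (adjusted p = 0.0636), and the blastula call was kept in all 6 such fits. NTM blastulas, at 8.85 to 13 RPKM, overlapped the MEF range and were not called, in a comparison that called 30.8% of genes.

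Across the 13 comparisons with donor cells, the one of MEFs with CCs included, 50 of 65 pairs were tested and 15 were called, 8 higher and 7 lower, where 33.6% of all tests were called. Besides Slc38a4, Jade1 was detected at 2.82, 3.52 and 4.19 RPKM in MEFs and in no NTM 1-cell embryo (limma adjusted p = 0.00131). The mean of the MEF libraries was 140.77-fold the floor of 3 reads per library, which covers counting error only. In NTM 4-cell embryos Jade1 exceeded MEFs by 2.17 ± 0.51 (adjusted p = 0.0166), and without MEF replicate 2 this missed the threshold (adjusted p = 0.0513). In CCs it varied from 0.00372 to 9.61 RPKM and no comparison with NTC was called, although leaving out CC replicate 1 or 2 gave calls in NTC 1-cell (adjusted p = 0.0226), 8-cell (adjusted p = 0.0426) and blastula embryos (adjusted p = 0.0266). Other calls gained without 1 library were Smoc1 in NTC blastulas without CC replicate 2 (adjusted p = 0.0228), Sfmbt2 in NTC blastulas without their replicate 3 (adjusted p = 0.0244) and Smoc1 in NTM blastulas without their replicate 3 (adjusted p = 0.0415). The Gab1 level of NTM embryos exceeded that of MEFs in morulae by 2.12 ± 0.62 (adjusted p = 0.0270) and in blastulas by 2.28 ± 0.63 (adjusted p = 0.0269). Each of these 2 Gab1 calls was lost without any 1 of the 3 NTM embryos (adjusted p from 0.0589 to 0.10 in morulae and from 0.0758 to 0.106 in blastulas). NTM 2-cell embryos were lower than MEFs for Jade1 by -1.69 ± 0.54 (adjusted p = 0.0423), a call lost in 5 of 6 fits without 1 library.

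Sfmbt2 reached 1 RPKM in the fewest embryos of the 5 genes. It was listed at 0 in in vivo 1-cell and 2-cell embryos and in NTM 1-cell embryos, and in donor cells it was at 0.0528, 0 and 0 RPKM in CCs and 0.335, 0 and 0 in MEFs. Before the blastula it exceeded 1 RPKM in 4 embryos only. These were an in vivo morula at 1.15 RPKM, an NTC 8-cell embryo at 7.72, an NTM 2-cell embryo at 2.45 and an NTM 4-cell embryo at 1.63. At the 8-cell stage the other NTC embryos had 0.255 and 0.418 RPKM and the in vivo embryos 0, 0 and 0.132. The level in NTM blastulas was above that of MEFs by 2.10 ± 0.45 on the log2 scale (limma adjusted p = 0.00880), and this was kept in all 6 fits without 1 library. In vivo replicate 2 had the lowest Sfmbt2 of the 9 blastulas, and its antisense partner Gm13261 was at 7.68 RPKM there. The other blastulas showed no single order of the 2 genes. Gm13261 was at 0 in in vivo replicates 1 and 3, which held 26.8 and 0.105 RPKM of Sfmbt2. It was at 5.94 in NTC replicate 1 and 5.66 in NTM replicate 2, which held 4.14 and 3.45 of Sfmbt2. A relation between the 2 genes was not tested.

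Smoc1 was found mainly from the morula on. It was at 0 in every in vivo, NTC and NTM 2-cell embryo, in in vivo and NTM 1-cell embryos and in MEFs, while 1 CC library held 13.2 RPKM and the others 0 and 0.00906. Morulae had 0, 2.21 and 1.86 RPKM in vivo, 6.20, 0.565 and 3.79 in NTC and 2.27, 3.11 and 6.02 in NTM. All NTM morulae exceeded the in vivo ones, the closest pair being 2.27 and 2.21, in a comparison where 5.82% of genes did so. NTM morulae were called higher than MEFs (limma adjusted p = 0.00687), and the call was kept in all 6 fits without 1 library. The mean of the NTM morulae was 164.2-fold the floor of 3 reads per MEF library, which covers counting error only. Blastulas had 5.70, 8.96 and 2.94 RPKM in NTC and 2.17, 11.8 and 0.124 in NTM. NTM replicate 3 was thus nearly without Smoc1, and mitochondrial reads made up 50.4% of that library. Smoc1 and the sum of trophectoderm markers showed no single order over the blastulas. The sum was 478 RPKM in NTM replicate 3 and 463 in NTM replicate 2, with 11.8 RPKM of Smoc1. In vivo replicates 1 and 2, without detected Smoc1, had sums of 468 and 1171. In vivo replicate 3, with 10.9 RPKM of Smoc1, had the highest sum of any blastula, 1592. NTC replicate 3 had the lowest sum, 172, and the lowest Smoc1 of the NTC blastulas. A relation between Smoc1 and these markers was not tested.

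NTM and NTC embryos were compared directly at each stage. Of 30 pairs of gene and stage, 22 were tested with limma and 0 were called, and 0 had an unadjusted p under 0.05. Over all genes 3.47% of these tests were called, and 2142 of the 2147 calls were at the 1-cell stage, where 19.8% of genes were called. That no gene passed does not show that the 2 NT types had the same level.

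Ranked by mean log2 level over the 20 groups, neighbouring groups overlapped nearly throughout. For Jade1 the top groups were NTM 4-cell, NTC 8-cell and NTC blastula, with means of 4.33, 3.61 and 3.42 on the log2(RPKM + 1) scale. For Gab1 they were NTC blastula (3.90), NTM blastula (3.64) and NTM morula (3.48), and the in vivo 8-cell group, in place 19 of 20, was the exception that did not overlap the next group. For Slc38a4 the order was in vivo blastula (4.32), NTC blastula (3.70), NTM blastula (3.61) and MEF (3.38), after which a gap without overlap led to NTC morula (2.12). Smoc1 was highest in NTC blastula (2.68) and NTM morula (2.19), and Sfmbt2 in NTM, NTC and in vivo blastula (2.24, 1.87 and 1.65).

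Between the 5 genes, the group means correlated with Pearson's r from 0.46 (Slc38a4 and Jade1) to 0.78 (Gab1 and Smoc1) over the 20 groups, which share stages and embryo types and are not independent. Outside the set, patterns among the 3 most similar of 13530 genes were BC053393 (r = 0.92) and Prss8 (0.88) for Sfmbt2, Adal (0.88), 1700042G15Rik (0.87) and Sco1 (0.86) for Gab1, and Vgll3 (0.93), Ddah1 (0.91) and Anxa3 (0.90) for Slc38a4. For Smoc1 they were Mras (0.91), Tmem144 (0.87) and Serpinb9b (0.85), and for Jade1 Slc19a2 (0.90), Nfatc3 (0.90) and Mettl27 (0.89). By Spearman's correlation BC053393 and 1700042G15Rik were also among the 3 most similar to their gene, and the others named here were not.

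Of the enzymes and partners that write or erase H3K27me3, 13 of 15 were tested at the 4-cell stage. NTC embryos had 4 of them higher and 2 lower than in vivo embryos, NTM embryos 2 higher and 3 lower, where 27.8% and 21.1% of all genes were called. The core subunits Suz12 and Eed were higher in both. The mean level of Suz12 was 52.4 RPKM in vivo, 349 in NTC and 373 in NTM, a rise of 2.72 ± 0.26 and 2.82 ± 0.33 on the log2 scale (limma adjusted p = 0.000147 and 0.00135). Eed had 61.6, 237 and 194 RPKM, a rise of 1.90 ± 0.36 and 1.66 ± 0.36 (adjusted p = 0.00484 and 0.0160).

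Kdm6b, the demethylase, was lower in both, with means of 2.13, 0.173 and 0.114 RPKM and log2 differences of -1.41 ± 0.43 and -1.48 ± 0.43 (adjusted p = 0.0411 and 0.0453), and the histone chaperone Rbbp4 was lower at 18.8, 3.53 and 2.82 RPKM, by -2.3 ± 0.53 and -2.68 ± 0.71 (adjusted p = 0.0124 and 0.0327). With other scalings of the libraries, the Suz12 and Eed calls were kept, the Kdm6b calls were lost in both types (adjusted p from 0.0659 to 0.0788), and the Rbbp4 call was lost in NTM (adjusted p = 0.0580 and 0.0799). In 8-cell embryos 12 of the 15 genes were tested and in blastulas 13, and none was called in NTC or NTM by limma. With both NT types together, Ezh1 was higher at the 8-cell stage by 2.00 ± 0.48 (adjusted p = 0.0386), and Rbbp4 and Suz12 in blastulas by 1.48 ± 0.41 and 1.26 ± 0.35 (adjusted p = 0.0303 and 0.0324). These 3 were named after their values were seen. The joint comparisons called 3.61% of all genes at the 8-cell stage and 18.5% in blastulas. Of the blastula calls 89.6% were higher in NT embryos, and the median gene was higher by 0.79 on the log2 scale.

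Of 11 partner proteins of the 5 gene products, 8 were tested at the 4-cell stage, with 2 higher and 1 lower in NTC and 1 higher and 1 lower in NTM. Over all genes these comparisons called 27.8% in NTC and 21.1% in NTM, so the counts are near the general rate. Yy1, a DNA-binding factor that recruits Sfmbt2 complexes, was called in both types, at 25.5 RPKM in vivo, 168 in NTC and 80.3 in NTM (log2 differences of 2.70 ± 0.35 and 1.68 ± 0.40, limma adjusted p = 0.000678 and 0.0235). Meaf6, a subunit of the Jade1 acetyltransferase complex, was lower, at 9.95, 3.04 and 2.24 RPKM (-1.48 ± 0.44 and -1.80 ± 0.53, adjusted p = 0.0351 and 0.0462), and this was lost with the other scalings (adjusted p from 0.0602 to 0.135). No partner was called at the 8-cell stage or in blastulas.

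Paralogs of the 5 genes were not called in NTC or NTM at the 4-cell, 8-cell or blastula stage by limma, although only 2 to 5 of the 8 could be tested. With both NT types together, Sfmbt1 and Slc38a1 were higher in blastulas by 1.44 ± 0.44 and 1.65 ± 0.45 (adjusted p = 0.0450 and 0.0294). This comparison called 18.5% of all genes, and these 2 paralogs too were named after their values were seen. In the group where each gene of the set was highest, its paralogs were mostly low. Sfmbt1 ranged from 0.925 to 2.94 RPKM in NTM blastulas. Gab2 ranged from 0.270 to 1.22 and Gab3 from 0 to 0.378 in NTC blastulas. Slc38a1 and Slc38a2 reached 0.125 and 0.226 RPKM in in vivo blastulas, and Smoc2 was at 0 in NTC blastulas. Jade3 was the exception, at 2.25 to 38.2 RPKM in the NTM 4-cell embryos in which Jade1 was highest, while Jade2 reached 1.11.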

How the data were processed

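RNA of 54 single embryos and 6 donor cell samples had been reverse transcribed, tailed and amplified by PCR without molecular identifiers. The submitters' processing notes name Bowtie 0.12.2 and the build mm8, whereas the study's methods describe TopHat alignment and HTSeq counting, so the build of the table was not settled. The authors deposited RPKM values per gene, scaled to library totals and gene length, in 1 table of 27238 genes, of which 27013 matched a symbol. Reads recovered from RPKM steps were whole for 213 of 213 values above 0 of the 5 genes (tolerance 0.02 reads) and were used only for depth and for the floor of 3 reads, which covers counting error only.

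Groups came from the sample labels, 3 libraries each. The 62 comparisons were fitted with limma 3.58.1 in R 4.3.3 (lmFit, eBayes with trend) on log2(RPKM + 1), after a filter of 0.5 RPKM on the mean, with Benjamini-Hochberg adjustment over all genes tested. A fold change on this scale understates that of low genes. The study compared groups with a count model, which does not suit RPKM. The code was tested on simulated data. Alternatives were a pseudocount of 0.1, no filter, median-ratio scaling, scaling without mitochondrial genes, 1 fit over the 20 groups, a replicate block, no fold threshold, unadjusted p and each library left out. The labels do not say that libraries of a group are separate collections, so p-values measure the spread between these samples. The 5 genes and the gene lists were chosen with earlier results of these data known. Named besides the 5 genes were the 3 genes with the highest correlation to each (1 of these is not reported here), list genes called in both NT types in 4-cell embryos or blastulas, and paralogs in the group where the gene was highest. Single libraries far from their group were not tested for, since groups held 3.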

Additional observations from a re-analysis of the deposited data

How the results depend on the processing

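Of 23 called differences of the 5 genes, 11 were kept in every fit that left out 1 library, and 10 of these also in the other alternatives. Of 607 values recomputed under an alternative, 599 kept their direction. Of the other 8, Sfmbt2 in NTC blastulas was -0.084 after median-ratio scaling, and without 1 library it ran from -0.60 to 1.79 in NTC blastulas and from -0.23 to 2.16 in NTM blastulas, and Smoc1 in NTM blastulas ran from -0.28 to 1.84. The cause was not tested.

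The number of pairs of gene and comparison called between each NT type and in vivo embryos, 2, became 0 without the filter on low values, 4 in 1 fit over all groups and 8 at an unadjusted p. Without 1 library it ran from 0 (any in vivo 8-cell embryo) to 4 (in vivo 4-cell replicate 2 or in vivo blastula replicate 1). With both NT types together, 2 became 5 with a pseudocount of 0.1, 0 without the filter, 4 in 1 fit and 7 at an unadjusted p, and 1 to 5 without 1 library. Stage transitions, 4, became 2 without the filter and 17 at an unadjusted p, and 2 to 5 without 1 library. Differences between transitions, 0, became 1 with a pseudocount of 0.1 (Gab1 in NTM, 4-cell to 8-cell) and 5 at an unadjusted p, and 0 to 1 without 1 library. Comparisons with donor cells stayed between 11 and 21 against 15, and 12 to 17 without 1 library. The 0 of NTM against NTC did not move.

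Replicate numbers did not pair the samples, as same-numbered libraries of a stage correlated from -0.165 to 0.119 in their deviations, with 3 of 54 over 0.1, and a library correlated best with its own number in 27 of 108 cases. With a replicate block the counts were 2, 1, 3, 0, 12 and 0 in place of 2, 2, 4, 0, 15 and 0, in the order of NT against in vivo, both NT types, transitions, NTM against NTC, donor cells and differences between transitions. Depth limits detection to about 3 reads per library, and the cause of the missing blastula calls was not tested.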
